A study of Drosophila melanogaster with 35 samples.

Results

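Heads of flies carrying the Y874C missense variant of KDM5 were compared with wild-type (WT) heads across all genes. The Y874C libraries numbered 3, and the controls were WT 1 and WT 2, together 5 of the 35 samples of the series and of its 23 RNA-seq libraries of heads. The 5 WT libraries did not look alike. WT 1 and 2 were used as the control because they matched Y874C in roX2, a noncoding RNA of male dosage compensation, and in Orco, the co-receptor of odorant receptors. roX2 measured 32.1, 40.5 and 26.8 CPM (read counts scaled to library size) in Y874C 1 to 3 and 24.1 and 29.1 CPM in WT 1 and 2, while WT 3 to 5 held 0.601, 0.603 and 0.243 CPM. Orco measured 6.47, 5.05 and 6.85 CPM in Y874C, 6.01 and 5.90 CPM in WT 1 and 2, and 65.0 to 68.9 CPM in WT 3 to 5. WT 3 to 5 therefore serve as a side check only, and both genes, having chosen the control, are given here as a description.

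KDM5 proteins are JmjC-domain enzymes that take methyl groups off a lysine of histone H3 found at active promoters, and they also act on transcription apart from this activity. The fly has 1 KDM5 gene, Kdm5. Variants of its human relative KDM5C cause Claes-Jensen syndrome, an X-linked intellectual disability. The study made 5 such missense variants in the fly protein, Y874C and the neighbouring R873W among them, and a demethylase-dead strain called JmjC, each set against WT KDM5. All flies were housed at 25 °C in a cycle of 12 hours of light and of dark, and were taken in the morning, 1 to 5 days after they eclosed. The labels give genotypes of heads only as WT, A224T, D234G, L854F, R873W, Y874C or JmjC. No source used here gives the way the alleles were made, the sex of the flies, the number of heads in a library or whether replicates were separate cultures. The p-values thus measure the spread between libraries, which may be technical.

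Y874C libraries held 26304207 to 32985353 counts and WT 1 and 2 held 19407837 and 19205057. Neuron, photoreceptor and glia markers were detected in each of the 5 libraries. Y874C 1 stood apart from its replicates: across genes its counts differed from those of Y874C 2 and 3 with a chi-square per degree of freedom of 79.7 and 59.97, against 10.8 between Y874C 2 and 3 and 8.48 between WT 1 and 2. Its share of counts from mitochondrial genes was 8.19%, against 4.2 and 4.58% in Y874C 2 and 3 and 6.67 and 7.10% in WT 1 and 2 (exact permutation test, two-sided, p = 0.4). WT 2 held 50 genes at 5 CPM or more that were over 4-fold above WT 1, and the reverse held for 1 gene. Of these 50 genes, 28 were called lower in Y874C. Transposable element insertions took 0.764% of counts in Y874C and 0.797% in WT 1 and 2 (exact permutation test, two-sided, p = 0.8; the smallest p that 3 against 2 libraries allow is 0.1).

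Kdm5, on chromosome arm 2L at 5989400 to 5999501 of the dm6 build, showed no difference between the groups that passed the test. It measured 545, 509 and 520 CPM in Y874C and 466 and 479 CPM in WT 1 and 2. The Y874C libraries were all above the WT pair, but the log2 fold of 0.15 ± 0.0711 (standard error of the fit) did not pass (adjusted p = 0.189). WT 3 to 5 held 448 to 536 CPM and overlapped with Y874C.

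Y874C heads differed from WT 1 and 2 in about as many genes upward as downward. Of 12925 genes tested, 750 were higher (5.80%) and 753 lower (5.83%), together 11.6%, by the quasi-likelihood test of edgeR, called where p adjusted over all these genes by Benjamini-Hochberg was under 0.05. All adjusted p-values given here are from it. By size, 431 of the 750 rises and 295 of the 753 falls lay within 1.5-fold, while 158 rises and 295 falls exceeded 2-fold. The median log2 fold was 0.50 among called rises, -0.75 among called falls and 0 over all genes. With only 2 control libraries these counts leaned on each of them: without WT 2, 279 genes were higher and 289 lower, and without WT 1, 373 and 415. Without Y874C 1, the library that stood apart, they were 836 and 664.

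The side check set the same genes against all 5 WT libraries. Of the 750 called rises, 463 (61.7%) had all 3 Y874C libraries above all 5 WT libraries, against 1247 of all genes tested (9.65%). Of the 753 called falls, 356 (47.3%) lay below all 5, against 1082 of all genes (8.37%). The calls used WT 1 and 2, so most called genes lay outside that pair from the start. Of all genes tested, 2728 lay above WT 1 and 2 (21.1%) and 2703 below (20.9%). The excess over all genes thus comes in part from the calls themselves. The falls included genes for which WT 1 and 2 were the unusual libraries. For 174 called falls (23.1%) WT 1 and 2 stood above each of the other 21 head libraries, of every strain, against 333 of all genes (2.58%). For 132 called rises (17.6%) they stood below them, against 223 of all genes (1.73%). The calls raise these shares too, as they used WT 1 and 2. Against WT 3 to 5 alone, 1935 genes were higher (15.0%) and 2136 lower (16.5%).

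The gene that changed most was mthl8, which encodes a receptor of the Methuselah-like family and lies on 3L at 22428 to 26308. It measured 93.5, 79.4 and 82.4 CPM in Y874C and had no count in WT 1 and 2. It was also near 0 in WT 3 to 5, at 0.06, 0 and 0 CPM. With 7340 counts against none, it was at least 1076-fold higher, taking 3 counts over the WT pair as the floor (adjusted p = 1.03e-10). Its level split the strains. The mean was 0.133 CPM in R873W and 0 in D234G, but 52.5 CPM in A224T, 50.1 CPM in L854F and 16.9 CPM in JmjC, so all 3 Y874C libraries exceeded the other 20 head libraries, the highest of which held 62.2 CPM.

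Next came IntS12, a subunit of the Integrator complex that cleaves nascent RNAs, on 3R at 26863376 to 26864559. It measured 11.7, 17.4 and 15.8 CPM in Y874C and 2.14 and 3.16 CPM in WT 1 and 2, a log2 fold of 2.49 ± 0.267 (adjusted p = 4.25e-06). R873W held a mean of 21.9 CPM, and the other strains 3.16 to 6.95 CPM. IntS10, another Integrator subunit, rose too, to 15.8, 15.2 and 16.9 CPM from 4.18 and 5.53 CPM, a log2 fold of 1.72 ± 0.158 (adjusted p = 6.55e-07). For this subunit the next highest strain was L854F, with a mean of 14.6 CPM, and R873W held 6.84 CPM.

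CG32225, on 3L at 20304310 to 20306283, measured 297, 307 and 303 CPM in Y874C against 67.6 and 72.6 CPM in WT 1 and 2. Its replicates hardly varied, and the log2 fold was 2.11 ± 0.0778 (adjusted p = 1.04e-12). R873W held 299.8 CPM, and each of the other strains averaged 49.8 to 84.9 CPM. CG4408 showed the same order, with 23.5 ± 3.23 CPM (SD, n = 3) in Y874C, 5.72 ± 0.0288 CPM (n = 2) in WT 1 and 2 and 22.6 CPM in R873W. The log2 fold of CG4408 was 2.04 ± 0.45 (adjusted p = 0.00515), and its call was lost without WT 1 (0.0593) and without WT 2 (0.0741).

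TkR99D, a receptor for tachykinin neuropeptides, rose to 55.8, 50.9 and 54.4 CPM from 16.1 and 19.9 CPM, a log2 fold of 1.58 ± 0.119 (adjusted p = 3.76e-08). Of the other strains JmjC came close, at a mean of 46.5 CPM, while R873W held 18.4 CPM. Eh, the eclosion hormone, measured 8.92, 8.41 and 8.19 CPM against 2.82 and 2.37 CPM, a log2 fold of 1.71 ± 0.273 (adjusted p = 0.000355). Against WT 3 to 5, at 4.87 to 7.18 CPM, the Eh difference of 0.50 did not pass (adjusted p = 0.0977).

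The remaining rises among the 12 largest were CG13305 (1.72), CG9150 (1.71), CG6472 (1.71), Ugt37A3 (1.97) and Cep290 (1.75), the last a protein of the base of cilia. The first 3 kept their calls when each of the 5 libraries was left out in turn. Ugt37A3, an enzyme that attaches sugars to small molecules, lost its call without WT 1 (adjusted p = 0.0687) and without WT 2 (0.085), and Cep290 without WT 2 (0.0833). Cep290 was also 3.66 CPM in WT 3 to 5 against 6.11 CPM in Y874C, a log2 fold of 0.74 that did not pass (adjusted p = 0.0912).

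**Figure D1:**
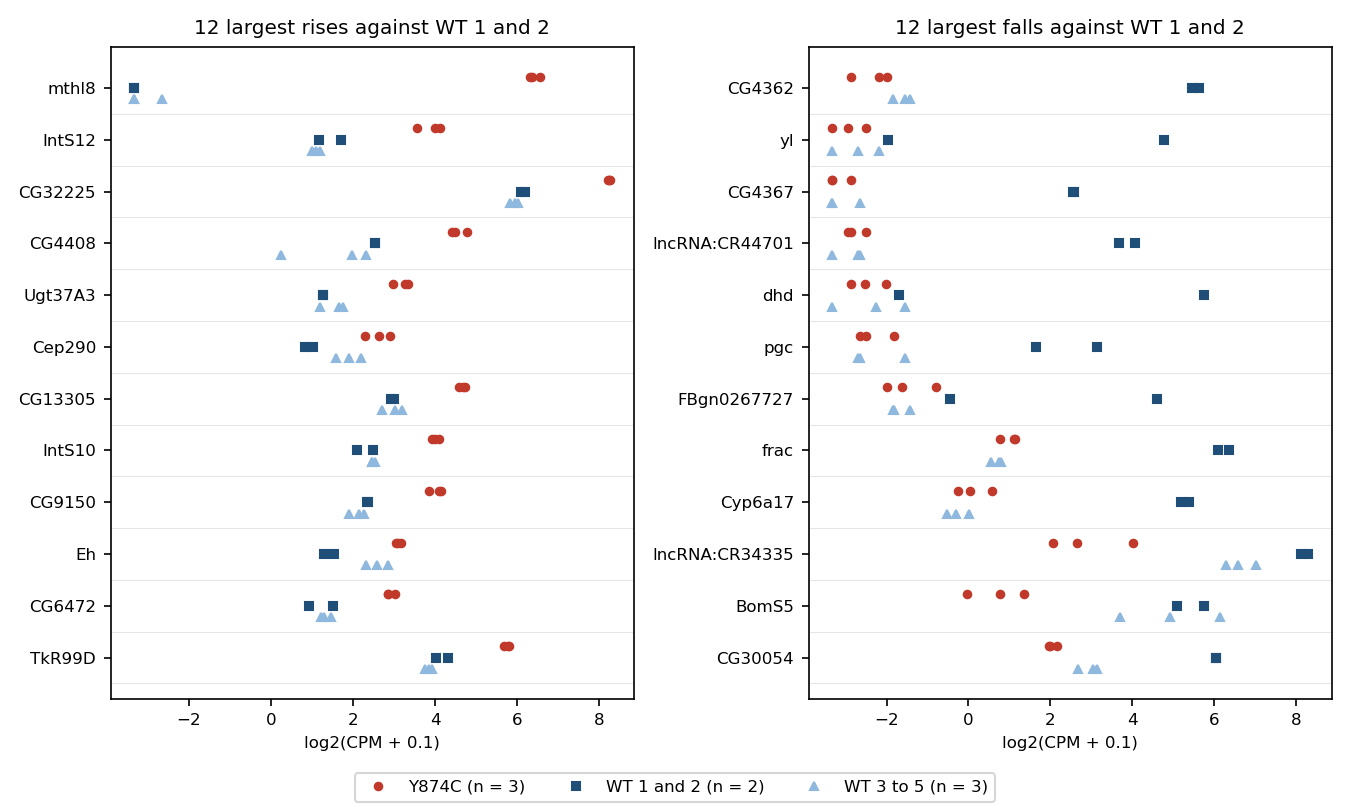
The 12 largest rises (left) and the 12 largest falls (right) among genes called in Y874C against WT 1 and 2, drawn as log2(CPM + 0.1) per library. Circles are Y874C, squares WT 1 and 2 and triangles WT 3 to 5. On the left the triangles lie with the squares for genes such as CG32225, whereas on the right they lie with the circles for CG4362, frac and Cyp6a17.

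The largest falls were of another kind: for most of them WT 1 and 2 stood alone. CG4362 measured 0.0372, 0.119 and 0.153 CPM in Y874C and 49.5 and 43.4 CPM in WT 1 and 2, a log2 fold of -8.72 ± 0.521 (adjusted p = 1.31e-09). No library other than WT 1 and 2 exceeded 0.422 CPM, and against WT 3 to 5 the difference of -1.12 did not pass (adjusted p = 0.247). CG4367 held 1 count in Y874C and 221 in the WT pair, a ratio of 0.00199 scaled for depth (95% exact interval of counting error 5.01e-05 to 0.0112).

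lncRNA:CR44701 behaved likewise, at 0.0297 to 0.0765 CPM in Y874C against 16.6 and 12.6 CPM. So did frac, at 1.598, 2.11 and 2.07 CPM against 67.5 and 82.4 CPM, and Cyp6a17, a cytochrome P450 tied to temperature preference, at 0.743, 0.922 and 1.38 CPM against 41.7 and 36.4 CPM. The highest of the other 21 head libraries held 0.133 CPM of lncRNA:CR44701, 6.88 CPM of frac and 1.83 CPM of Cyp6a17. Against WT 3 to 5 these genes differed by 0.23 (lncRNA:CR44701), 0.34 (frac) and 0.44 (Cyp6a17), in the opposite direction, and none passed (adjusted p = 0.925, 0.55 and 0.401). CG30054 fell from 65.6 and 65.3 CPM to 3.90, 3.78 and 4.36 CPM and was lower against WT 3 to 5 as well, by 0.95 (adjusted p = 0.000773), though there the WT level was 6.32 to 8.71 CPM.

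Other large falls rested on WT 2, among them yl and dhd, both known from the female germline. yl, the oocyte receptor for yolk, measured 0.157 CPM in WT 1 and 27.3 CPM in WT 2, and 0, 0.0297 and 0.0765 CPM in Y874C. dhd, a thioredoxin of eggs, measured 0.209 and 53.5 CPM in the WT pair. FBgn0267727, which has no symbol in the tables used, measured 0.627 and 24.4 CPM in the WT pair, but differed from yl elsewhere, with 155, 12.6 and 179 CPM of FBgn0267727 and 0, 15.1 and 0.411 CPM of yl in D234G 1 to 3. Without WT 2 the adjusted p was 0.758 for yl, 0.88 for dhd and 0.877 for FBgn0267727. Unlike these, pgc, which silences transcription in early germ cells, was 3.03 and 8.64 CPM in the WT pair and at most 0.186 CPM in Y874C, and kept its call without either (log2 fold -5.71 ± 1.11, adjusted p = 0.00193). The summed female reproductive markers were 5.62 to 6.81 CPM in Y874C, 5.65 CPM in WT 1 and 17.0 CPM in WT 2. Of 9 such markers tested, 0 were higher and 2 lower in Y874C, and Cp16, Cp38 and Vm34Ca had no count. The part of such tissue in these values was not tested.

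lncRNA:CR34335 measured 16.1, 6.12 and 4.05 CPM in Y874C against 313 and 280 CPM in WT 1 and 2. This gene was lower against WT 3 to 5 as well, which held 130, 95.8 and 77.8 CPM (log2 fold -3.54, adjusted p = 5.08e-07). Against WT 1 and 2 the log2 fold was -5.09 ± 0.4 (adjusted p = 6.52e-08).

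A stricter view is given by genes for which Y874C stood outside every other head library, chosen after their values were seen. The 3 Y874C libraries lay above the other 20 for 46 called rises and below them for 33 called falls, against 87 (0.673%) and 52 (0.402%) of all genes tested. The other 20 include WT 1 and 2, so the share among called genes is raised by the calls. GABA-B-R1, a metabotropic receptor for the inhibitory transmitter GABA on 2L at 15016331 to 15034704, measured 326, 215 and 237 CPM in Y874C and 98.8 and 99.8 CPM in WT 1 and 2. The other 20 libraries spanned 85.6 to 127 CPM, and the log2 fold was 1.38 ± 0.127 (adjusted p = 6.32e-07). pira and Agpat1 lie side by side on X, at 12760642 to 12763611 and 12765266 to 12772851. pira measured 52.4, 42.9 and 41.4 CPM against at most 39.8 CPM elsewhere (log2 fold 1.37), and Agpat1, an enzyme of phospholipid synthesis, 110, 86.9 and 91.9 CPM against at most 66.6 CPM (log2 fold 0.81). Cftr, related to the human chloride channel CFTR, measured 83.9, 86.1 and 90.2 CPM. The other libraries held 48.9 to 82.6 CPM, so for Cftr the gap to the nearest library was small, although the log2 fold of 0.79 passed (adjusted p = 3.11e-06).

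MtnA, a metallothionein that binds copper and zinc, measured 633, 392.4 and 366 CPM in Y874C against 270.2 and 274 CPM in WT 1 and 2. Its call (log2 fold 0.77, adjusted p = 0.00941) was lost without WT 1 (0.0642) and without WT 2 (0.0775). On the low side SK, the calcium-activated potassium channel, measured 350.2, 241 and 251 CPM against 443 and 414 CPM, with 358 to 546 CPM over the other 20 libraries. The log2 fold of SK was -0.61 ± 0.128 (adjusted p = 0.00357), and 0.0602 without WT 1. Sod3, an extracellular superoxide dismutase, held 84.6 to 87.4 CPM against 132 and 126 CPM (log2 fold -0.58, adjusted p = 0.000922). Iml1, a brake on TOR signalling when amino acids are scarce, held 147 to 157 CPM against 212 and 214 CPM (log2 fold -0.50, adjusted p = 0.000128). CG16978 held 6.85 to 8.03 CPM against 56.3 and 58.1 CPM, with 8.63 CPM in the lowest of the other libraries (log2 fold -2.92).

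Toll signalling detects fungi and many bacteria outside the cell and drives the fat body to secrete antimicrobial peptides, among them the Bomanins (Bom genes), the antifungal Daisho peptides (Dso1 and Dso2), and Drosomycin and its relatives (Drs and Drsl genes). Genes of this output were lower in Y874C heads: of 19 Toll effectors tested, 16 fell and 0 rose, with a median log2 fold of -2.26 against 0 for all genes. The summed level of the 19 genes was 542, 519 and 387 CPM in Y874C and 2248 and 1892 CPM in WT 1 and 2. WT 3, 4 and 5 held 1514, 2987 and 922 CPM, so all 5 WT libraries were above all 3 Y874C libraries, though WT varied widely. Against WT 3 to 5, 15 fell and 0 rose (median -1.99). Leaving out each of the 5 libraries gave 13 to 15 falls. Falls of Toll effectors were not particular to Y874C. Against the same WT pair, a control shared by these comparisons, 17 of the 19 fell in R873W and 12 in D234G. Of all genes tested, 18.5% fell in R873W, 11.6% in D234G and 5.83% in Y874C. In bulk heads, fewer cells of a type and less RNA per cell cannot be told apart.

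Among the Bomanins, BomS1 measured 43.3, 30.03 and 17.9 CPM in Y874C and 229 and 223.6 CPM in WT 1 and 2, a log2 fold of -2.90 ± 0.522 (adjusted p = 0.00101). BomS2 (-2.26), BomS3 (-1.86) and BomBc1 (-3.96) fell with it, as did BomS5, from 53.3 and 33.8 CPM to 1.598, 2.47 and 0.88 CPM (-4.69 ± 0.532, adjusted p = 9.13e-06). WT 3 to 5 spanned 51.6 to 279 CPM of BomS1 and 12.8 to 70.2 CPM of BomS5, above Y874C in each library. BomBc2 was 68.7, 126 and 94.8 CPM against 156 and 161 CPM and did not pass (log2 fold -0.72, adjusted p = 0.202). Bomanin genes are short and alike in sequence, so the assignment of reads among them is uncertain.

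Both Daisho genes fell. Dso1 measured 52.7, 47.5 and 33.7 CPM against 271 and 202 CPM, and Dso2 measured 1.75, 2.56 and 1.11 CPM against 27.1 and 22.1 CPM. Their log2 folds were -2.40 ± 0.293 (Dso1, adjusted p = 2.09e-05) and -3.74 ± 0.456 (Dso2, adjusted p = 2.1e-05). In WT 3 to 5 they were at or above the levels of WT 1 and 2, with Dso1 at 249, 577 and 211 CPM. R873W was nearly as low as Y874C, at means of 61.6 CPM of Dso1 and 2.91 CPM of Dso2.

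The drosomycin family split. Drs itself measured 9.92, 42.1 and 6.08 CPM in Y874C and 22.7 and 15.1 CPM in WT 1 and 2, so the groups overlapped and no difference passed (log2 fold 0.05 ± 0.864). Drsl4 fell from 147 and 116 CPM to 14.0, 8.65 and 6.81 CPM (log2 fold -3.74, adjusted p = 3.39e-06), but WT 3 to 5 held 13.8, 5.26 and 5.29 CPM and overlapped with Y874C. Drsl5 fell from 245 and 203 CPM to 12.3, 22.9 and 22.9 CPM (log2 fold -3.53, adjusted p = 1.75e-08), with WT 3 to 5 at 162, 128 and 83.5 CPM. Mtk, the antifungal Metchnikowin, was 42.4 and 15.3 CPM in the WT pair and 0.557, 3.15 and 1.49 CPM in Y874C. Its call (log2 fold -3.998 ± 1.24, adjusted p = 0.041) was lost when any of the 5 libraries was left out (adjusted p 0.0687 to 0.281).

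Of 32 genes for recognition of microbes and for immune signalling, upstream of these peptides, 1 rose and 2 fell, a share near that of all genes. Set against WT 3 to 5, 0 of them rose and 11 fell. The riser was GNBP1, which recognises Gram-positive bacteria upstream of Toll, at 35.3, 32.8 and 34.4 CPM against 24.8 and 26.5 CPM (log2 fold 0.41 ± 0.0742, adjusted p = 0.000999). nec, an inhibitor of the protease cascade before Toll, fell by 0.59 on the log2 scale (adjusted p = 0.0049, 0.0682 without WT 2). PGRP-LF, an inhibitor of the Imd pathway, fell by 1.01 on the log2 scale (adjusted p = 0.0065, 0.0911 without WT 1). Of 13 genes for the antibacterial peptides of Imd, 0 rose and 1 fell. That gene was BaraA1, a baramicin also known to respond to Toll, at 125, 125 and 100.2 CPM against 322 and 315 CPM, and it overlapped with WT 3 to 5, which held 94.3 to 277 CPM. Def, for defensin, was 2.26 to 3.51 CPM against 12.6 and 7.58 CPM and did not pass (log2 fold -1.71, adjusted p = 0.0801). Hemocyte markers gave 0 rises and 0 falls among 6.

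**Figure D2:**
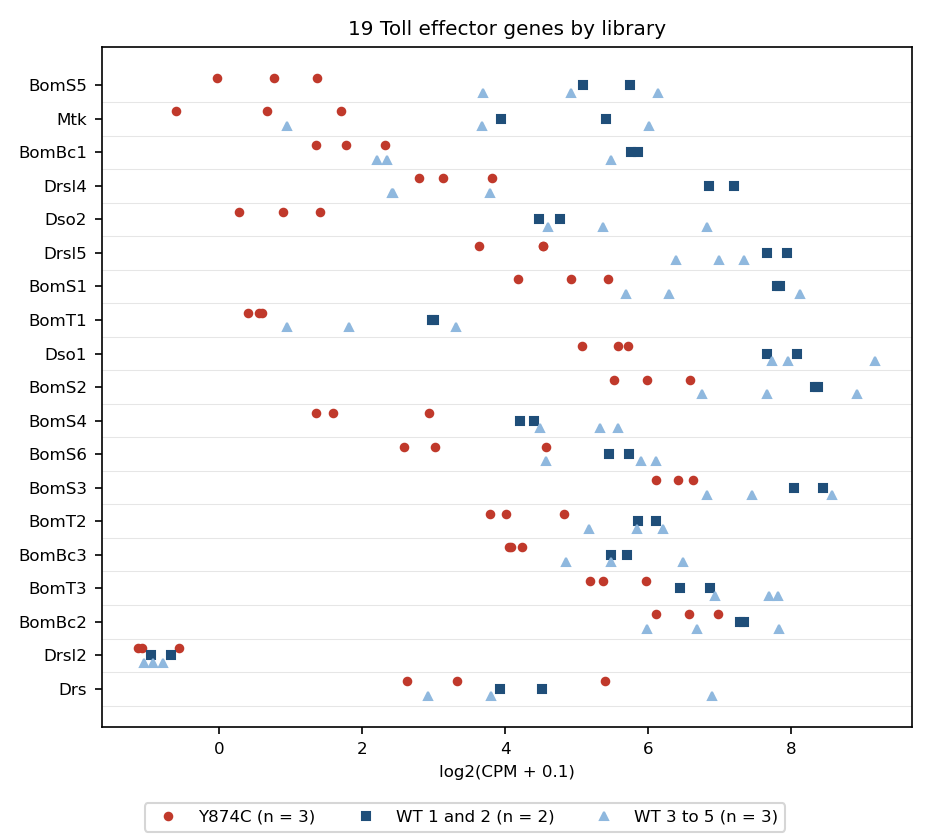
Levels of the 19 Toll effector genes tested, as log2(CPM + 0.1), with 1 symbol per library (circles Y874C, squares WT 1 and 2, triangles WT 3 to 5). The circles lie left of the squares for 17 genes, Drs and Drsl2 being the exceptions (20.9% of all genes tested lay so), and the triangles spread more widely than the squares for most genes, such as BomBc1 and Mtk.

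The gene lists are described by their members tested, and 11.6% of all genes tested were called. Called members of the TCA cycle, glycolysis, muscle and UDP-glycosyltransferase lists all rose, and called members of both the 60S and the mitochondrial ribosomal protein lists all fell. No member of the synaptic vesicle machinery was called among 32 (0 rose and 0 fell, median -0.05), and none of 19 gustatory receptors. The proteasome list gave 1 rise among 48 and the 21 aminoacyl-tRNA synthetases 1 fall.

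**Figure D3:**
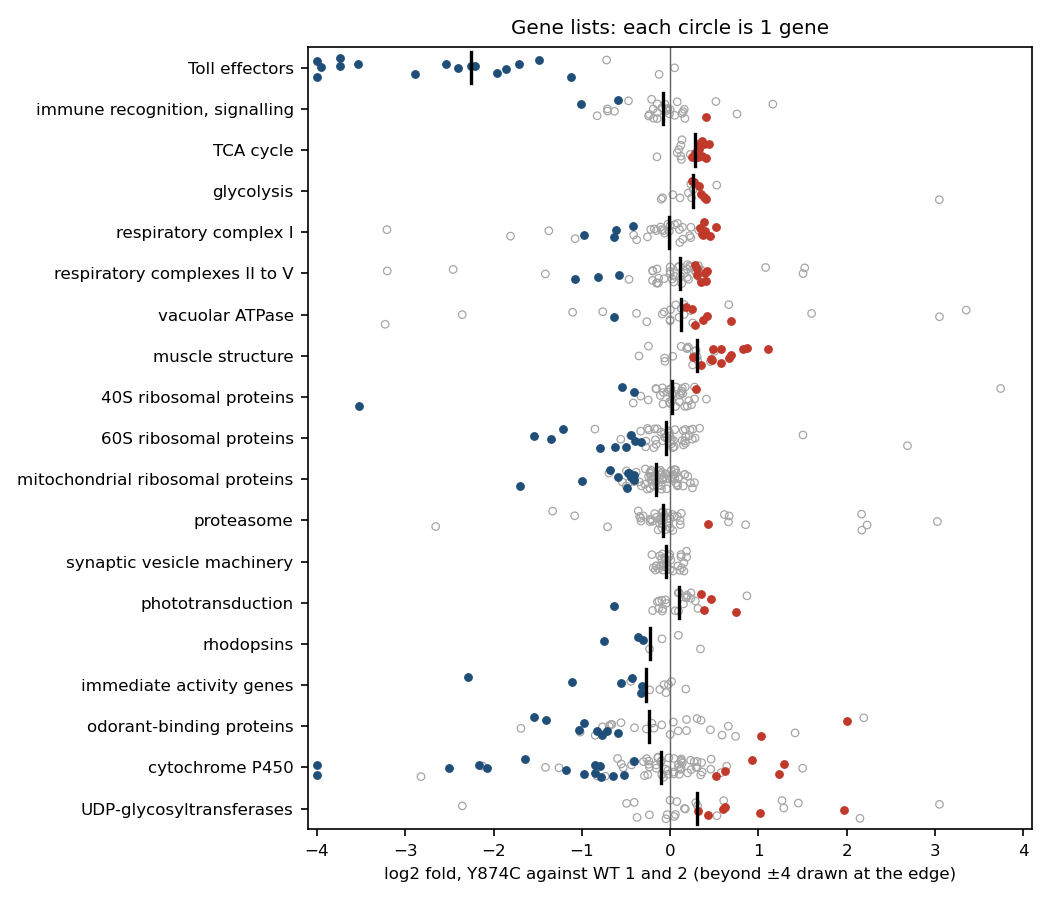
Log2 folds of Y874C against WT 1 and 2 for the genes of 19 lists. Red circles rose, blue circles fell, open circles did not pass, and the black bar is the list's median; 3 genes beyond 4 are drawn at the edge. The Toll effectors lie furthest to the left, with a median of -2.26, while the synaptic vesicle genes all lie close to 0.

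The tricarboxylic acid (TCA) cycle oxidises acetyl groups in mitochondria and supplies electrons to the respiratory chain. Of its 21 genes 11 rose and 0 fell, with a median log2 fold of 0.28. Their summed level was 9753, 10340 and 10700 CPM in Y874C against 8475 and 8485 CPM in WT 1 and 2, and WT 3 to 5 held 7737 to 8497 CPM. Each of the 11 called genes lay above all 5 WT libraries. mAcon1, the mitochondrial aconitase, measured 1115, 1187 and 1242 CPM against 894 and 909.7 CPM (log2 fold 0.39 ± 0.0838, adjusted p = 0.00422). CG5214, which the list holds as a subunit of the 2-oxoglutarate dehydrogenase complex, measured 309, 365 and 382 CPM against 265 and 265 CPM (0.41 ± 0.0761, adjusted p = 0.00131). Idh3a, of isocitrate dehydrogenase, rose by 0.44 (adjusted p = 0.00514), and by 0.44 with an adjusted p of 0.0514 without WT 1. The list's count was 2 without WT 1, 3 without WT 2, and 3 without Y874C 3.

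Glycolysis showed the same direction with fewer calls: of 16 genes 6 rose and 0 fell, with a median of 0.26. Gapdh2, of the glyceraldehyde phosphate step, measured 899, 884 and 907 CPM against 699 and 712 CPM (log2 fold 0.35 ± 0.0799, adjusted p = 0.00699). Pglym78, a phosphoglycerate mutase, rose by 0.38 (adjusted p = 0.0143). Without WT 1 or without WT 2 no glycolytic gene was called, and without Y874C 3 the count was 1. The adjusted p of Gapdh2 was then 0.0597 (without WT 1) and 0.0648 (without WT 2), and that of Pglym78 0.0887, 0.0836 and 0.0658 (without Y874C 3).

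The respiratory chain gave calls in both directions. Of 38 nuclear genes of complex I, 7 rose and 4 fell (median -0.02), and of 49 genes of complexes II to V, 7 rose and 3 fell (median 0.12). The counts against WT 3 to 5 were 22 higher and 1 lower of complex I (median 0.53), and 28 higher and 1 lower of complexes II to V (median 0.56). ND-ACP, the acyl carrier protein of complex I, measured 197, 188 and 199 CPM against 138 and 134 CPM (log2 fold 0.52 ± 0.114, adjusted p = 0.00502, 0.0682 without WT 2). ND-39 rose by 0.39 (adjusted p = 0.0051, 0.0524 without WT 1) and ATPsynC, the ring subunit of ATP synthase, by 0.40 (adjusted p = 0.00606, 0.0768 without WT 2). ND-MWFE, a small subunit of complex I, fell to 14.4, 19.1 and 18.4 CPM from 30.4 and 37.6 CPM, a log2 fold of -0.97 ± 0.165 (adjusted p = 0.000599). ox, of complex III, fell from 82.0 and 56.2 CPM to 36.9, 28.4 and 33.2 CPM (-1.07 ± 0.186, adjusted p = 0.000708). ND-MWFE was higher in Y874C than in WT 3 to 5, by 0.70 (adjusted p = 0.00174), so its direction depended on the WT libraries used. Both rising and falling members of complex I numbered 1 without WT 1 and 1 without WT 2. For complexes II to V the rises were then 1 and 0.

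Of the 13 genes on the mitochondrial genome, 0 rose and 3 fell. mt:ND3 measured 98.5, 90.0 and 98.0 CPM against 325 and 329 CPM (log2 fold -1.77 ± 0.428, adjusted p = 0.00957). The falls of mt:ND1 (-0.95, adjusted p = 0.045) and mt:ND4L (-1.61, adjusted p = 0.00542) were uneven, and mt:ND4L was higher in Y874C than in WT 3 to 5, by 1.76. The 3 falls were lost without WT 1, with an adjusted p of 0.0526 for mt:ND3, 0.154 for mt:ND1 and 0.0781 for mt:ND4L. Without WT 2 mt:ND3 had 0.0648 and mt:ND1 0.224, and mt:ND1 had 0.158 without Y874C 2 and 0.16 without Y874C 3.

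The vacuolar ATPase pumps protons into lysosomes and other vesicles. Of its 29 genes 6 rose and 1 fell, with a median of 0.13. Vha68-1 and Vha68-2 encode versions of its catalytic subunit. Vha68-1 measured 520, 533 and 552 CPM against 321 and 340 CPM (log2 fold 0.69 ± 0.0775, adjusted p = 7.44e-06), and Vha68-2 measured 273, 297 and 282 CPM against 212 and 214 CPM (0.42 ± 0.0705, adjusted p = 0.000601). VhaAC45 rose by 0.37 (adjusted p = 0.000601). VhaM9.7-a, of the membrane sector, fell by 0.64 on the log2 scale (adjusted p = 0.00133), while against WT 3 to 5 its difference was 0.12. All 4 calls held without each of the 5 libraries.

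Muscle genes encode the contractile apparatus, which in the head moves the mouthparts and antennae. Of 29 tested 12 rose and 0 fell, with a median log2 fold of 0.31. Their summed level was 21090, 19270 and 23480 CPM in Y874C and 16550 and 14780 CPM in WT 1 and 2. WT 3 to 5 were lower still, at 11500 to 13030 CPM, and 10 of the 12 called genes lay above all 5 WT libraries. TpnC25D, a troponin C, measured 432, 371 and 457 CPM against 235 and 226 CPM (log2 fold 0.87 ± 0.119, adjusted p = 7.87e-05). Prm, the paramyosin of thick filaments, measured 778, 715 and 925 CPM against 486 and 422 CPM (0.83 ± 0.153, adjusted p = 0.00124). SERCA, the calcium pump of the sarcoplasmic reticulum, rose by 0.69 (adjusted p = 0.00268, 0.0591 without WT 2).

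The other muscle genes were less even. Mhc, the myosin heavy chain, rose by 0.57 (adjusted p = 0.0178), but had an adjusted p of 0.211 without WT 2 and 0.0721 without Y874C 3. TpnC4 rose by 1.11 (adjusted p = 0.00163, 0.0515 without WT 1) and lay below WT 3 to 5. The count of rises was 6 without WT 1, 4 without WT 2 and 6 without Y874C 3. The 8 muscle markers, which overlap with this list, summed to 8128 to 10500 CPM in Y874C and 7021 and 6114 CPM in WT 1 and 2, with 4 rises, 0 falls and none at 0. The part of muscle content in the rises of muscle and of energy metabolism was not tested.

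**Figure D4:**
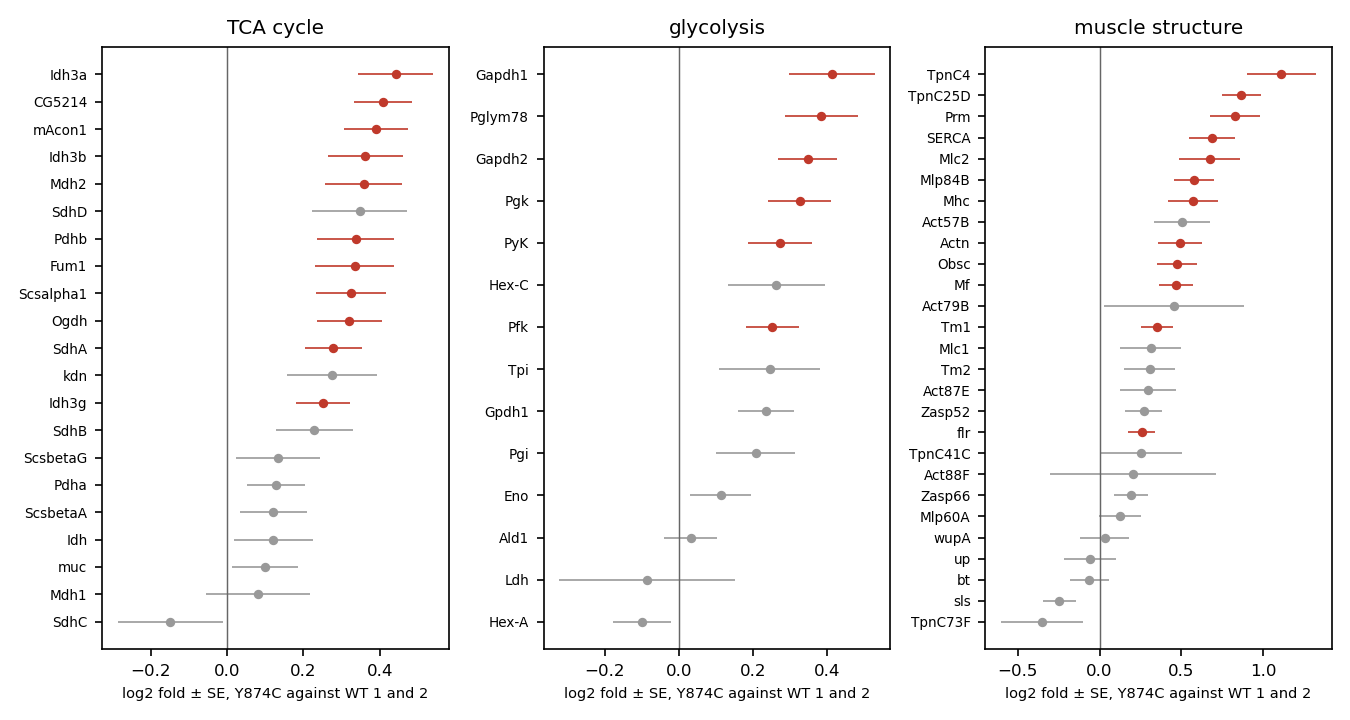
Log2 fold ± standard error of Y874C against WT 1 and 2 for genes of the TCA cycle, glycolysis and muscle structure (n = 3 against 2). Red points rose and grey points did not pass; 2 glycolytic and 2 muscle genes under 5 CPM are left out. Most points lie right of 0, with TpnC4 at 1.11 the furthest.

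Yolk proteins, which the fat body of females secretes, were higher in Y874C than in WT 1 and 2 and lower than in WT 3 to 5. Yp1 measured 4076, 3377 and 4451 CPM in Y874C, 1801 and 2198 CPM in WT 1 and 2, and 10550 to 12710 CPM in WT 3 to 5. The log2 fold of Yp1 was 0.99 ± 0.171 (adjusted p = 0.000705) against the former and -1.53 against the latter. Yp2 (0.90, adjusted p = 0.00489, 0.0608 without WT 1) and Yp3 (1.12, adjusted p = 0.000943) rose with it, and against WT 3 to 5 their log2 folds were -1.55 (Yp2) and -1.34 (Yp3). The summed fat body markers, which include the yolk proteins, were 20850 to 25990 CPM in Y874C, 14460 and 16130 CPM in WT 1 and 2, and 60670 to 65070 CPM in WT 3 to 5. Of 8 tested 4 rose, Yp1, Yp2 and Yp3 among them, and 0 fell, and Had1 was at 0. Of the other markers, FASN1 and the gene to were higher in each Y874C library than in WT 1 and 2, and Nplp2 was lower. apolpp overlapped, at 4222, 3095 and 3108 CPM in Y874C and 3235 and 3427 CPM in WT 1 and 2, and so did Lsp2. The part of fat body content or of sex in these values was not tested. Male reproductive markers gave 0 rises and 0 falls among 23.

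Other genes of fuel handling were mixed. Of 32 fat body and lipid genes 0 rose and 1 fell, the storage protein Lsp1beta, at 3.38, 5.68 and 3.596 CPM against 33.7 and 29.7 CPM. No other head library exceeded 15.0 CPM of Lsp1beta, and against WT 3 to 5 its difference was 0.09. Among 26 sugar genes 3 rose and 3 fell. Tret1-1, a trehalose transporter, measured 430, 430 and 449 CPM against 288 and 307 CPM (log2 fold 0.55 ± 0.0674, adjusted p = 2.09e-05). UGP, which makes UDP-glucose, and Glys, the glycogen synthase, rose by 0.66 (UGP, adjusted p = 0.000142) and 0.47 (Glys, adjusted p = 0.00126). Against WT 3 to 5 Glys was higher by 0.30 (adjusted p = 0.00534), but Tret1-1 (0.08) and UGP (-0.20) did not pass. Without each library in turn these 3 rises held, while the falls of sugar genes numbered 0 to 1.

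Ribosomal protein genes, the family that the study's design text names as lowered across its variants from these same samples, had called members mainly in the 60S subunit. Of 38 genes of the 40S subunit 1 rose and 3 fell (median 0.02), and of 52 of the 60S subunit 0 rose and 9 fell (median -0.05), where 5.83% of all genes fell. The clearest falls were of very short 60S proteins. RpL29 measured 288, 215 and 219 CPM against 665 and 566 CPM (log2 fold -1.35 ± 0.168, adjusted p = 2.56e-05). RpL39 measured 73.9, 49.4 and 44.5 CPM against 197 and 127 CPM (-1.54 ± 0.2, adjusted p = 4.24e-05), and RpL41 measured 624, 375 and 372 CPM against 1149 and 976 CPM (-1.22 ± 0.168, adjusted p = 7.97e-05). All were also lower than in WT 3 to 5, where RpL39 reached 351 to 533 CPM. Without WT 1 or without WT 2 the 60S falls numbered 4.

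The few 40S calls were each lost when at least 1 library was left out. Without WT 1 or WT 2 the control holds 1 library, so a lost call there need not mean a changed estimate. RpS3A rose by 0.29 (adjusted p = 0.0494), lost this call without any of the 5 libraries (adjusted p 0.0664 to 0.302) and was lower than in WT 3 to 5 by 0.56 on the log2 scale. RpS23 fell by 0.54 on the log2 scale (adjusted p = 0.00845), and its log2 fold was -0.50 without WT 1 and -0.55 without WT 2. RpS30 fell by 0.41 (adjusted p = 0.0321), with an adjusted p of 0.14 without Y874C 1 and 0.0501 without Y874C 3. The log2 fold of RpS30 was -0.48 without WT 1 and -0.30 without WT 2. RpS5b, a paralog known from the germline, held 13.2 CPM in WT 2 and 0.314 CPM in WT 1. The 40S falls numbered 1 without WT 1 and 0 without WT 2.

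Mitochondrial ribosomal proteins, which translate the mitochondrial genome, moved weakly downward, with 0 rises and 10 falls among 72 and a median of -0.16. mRpL34 fell to 0.706, 1.55 and 1.42 CPM from 3.71 and 4.26 CPM (log2 fold -1.70 ± 0.296, adjusted p = 0.000789), mRpS35 by 0.46 on the log2 scale and mRpL42 by 0.69. Against WT 3 to 5 the median of the list was 0.22, with 25 higher and 3 lower, and mRpL42 was higher by 0.47, so this direction too depended on the WT libraries. Without WT 1 or without WT 2 the falls numbered 4. Of 56 translation factors 0 rose and 3 fell, eIF4H1 by 0.50 on the log2 scale (adjusted p = 0.00059), and of 44 genes of ribosome biogenesis 0 rose and 3 fell (median -0.14). Without WT 1 these falls numbered 1 and 2, without WT 2, 1 and 0, without Y874C 2, 2 and 0, and without Y874C 3, 1 and 1. With WT 3 to 5 as control, 30 translation factors and 29 genes of ribosome biogenesis (median -0.62) were lower, and with all 5 WT 18 and 24.

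Genes of neurons changed singly. Of 37 transmitter receptors 4 rose and 0 fell, with GABA-B-R1 the furthest, and of 24 voltage-gated channels sei rose and SK fell. The rise of sei, a potassium channel (log2 fold 0.31, adjusted p = 0.0231), was lost without WT 1 (0.0662), without WT 2 (0.226) and without Y874C 3 (0.0761). Of 26 genes for making or carrying transmitters 4 rose and 0 fell. ple, the tyrosine hydroxylase of dopamine and cuticle synthesis, measured 339, 253 and 274 CPM against 169 and 134 CPM (log2 fold 0.93 ± 0.23, adjusted p = 0.0109, 0.184 without WT 2). t (tan), which frees dopamine and histamine from their β-alanyl forms, rose by 0.66 (adjusted p = 0.0117), with 0.0589 without WT 1 and 0.12 without WT 2. Tdc1, a tyrosine decarboxylase, rose by 0.75 (adjusted p = 0.0033, 0.124 without WT 2). Without WT 2 none of these 4 rises was called, and the receptor rises numbered 1, as they did without Y874C 1.

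Among 34 neuropeptides Eh and Proc rose and AstA and Dsk fell. Proc, proctolin, measured 87.9, 69.9 and 74.6 CPM against 51.6 and 54.4 CPM (log2 fold 0.55 ± 0.0928, adjusted p = 0.000601). AstA, allatostatin A, fell by 0.35 on the log2 scale (adjusted p = 0.00741, 0.16 without WT 1), yet was higher than in WT 3 to 5 by 0.50. Dsk, drosulfakinin, fell by 0.59 on the log2 scale (adjusted p = 0.0345) and lost its call when any of the 5 libraries was left out (adjusted p 0.0624 to 0.354). The 5 neuron markers gave 0 rises and 0 falls, with sums of 3431 to 4318 CPM in Y874C and 3979 and 3801 CPM in WT 1 and 2.

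In the eye, rhodopsins, the light receptors, were lower for 3 of 7 and higher for 0. Rh5, of blue-sensitive inner photoreceptors, measured 137, 165 and 172 CPM against 266 and 267 CPM (log2 fold -0.75 ± 0.0868, adjusted p = 1.11e-05), and was lower than in WT 3 to 5 by 0.27 (adjusted p = 0.0134). ninaE, the main rhodopsin, measured 23290, 23170 and 23000 CPM against 29790 and 29710 CPM (-0.36, adjusted p = 0.00896), but had an adjusted p of 0.101 without WT 1 and 0.101 without WT 2, and lay within WT 3 to 5. Of 27 genes of phototransduction 4 rose and 1 fell. The faller was rtp, at 277, 449 and 423 CPM against 597 and 596 CPM (log2 fold -0.64, adjusted p = 0.00185). Without WT 2 the rhodopsin falls numbered 1 and the phototransduction rises 0, and without WT 1, 1 and 3. The summed photoreceptor markers, among them these rhodopsins, were 35490 to 36670 CPM in Y874C and 42890 and 42240 CPM in WT 1 and 2, with 0 rises and 3 falls among 9 and none at 0, and their part in these falls was not tested.

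Clock genes and genes that neuronal activity induces within hours were lower in part. Of 14 clock genes 1 rose and 3 fell. vri, a repressor in the second loop of the clock, measured 45.2, 49.2 and 48.4 CPM against 113 and 118 CPM (log2 fold -1.28 ± 0.256, adjusted p = 0.00243). Clk, the activator it represses, rose to 116, 92.4 and 98.0 CPM from 67.0 and 62.9 CPM (0.65 ± 0.0967, adjusted p = 0.000174). per fell by 0.98 on the log2 scale (adjusted p = 0.0176), with 0.0746 without WT 1, 0.147 without WT 2 and 0.0626 without Y874C 1. The falls of clock genes numbered 1 without WT 1 and 1 without WT 2. WT 3, 4 and 5 held 126, 143 and 52.2 CPM of vri and 101, 104 and 125 CPM of Clk, so libraries of the same genotype spanned a wide range. These transcripts cycle over the day, and no source used here gives the hour of each collection within the morning.

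Of 14 immediate activity genes 6 fell and 0 rose, with a median of -0.28. Hr38, a nuclear receptor induced by neuronal firing, measured 23.2, 19.4 and 22.8 CPM in Y874C and 110 and 103 CPM in WT 1 and 2 (log2 fold -2.29 ± 0.25, adjusted p = 5.56e-06). sr (stripe), the relative of mammalian Egr genes, measured 34.3, 30.4 and 31.0 CPM against 68.9 and 68.9 CPM (-1.11 ± 0.211, adjusted p = 0.00154). WT 3 to 5 were also above Y874C, at 59.1 to 89 CPM of Hr38 and 40.3 to 64.7 CPM of sr, and both differences passed (adjusted p = 1.31e-05 and 0.0183). The count of falls was 3 without WT 1, 3 without WT 2 and 3 without Y874C 2.

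Of 36 odorant-binding proteins 2 rose and 8 fell (median -0.24). Obp56d measured 202, 195 and 219 CPM against 408 and 399 CPM (log2 fold -0.97 ± 0.147, adjusted p = 0.00021), but WT 3 to 5 held 141 to 220 CPM. Obp19d fell by 0.59 on the log2 scale (adjusted p = 0.00412, 0.0767 without WT 1). The falls numbered 2 without WT 1 and 4 without WT 2. Among 64 odorant and ionotropic receptors 4 rose and 3 fell. Or63a, at 12.9, 15.4 and 15.6 CPM against 5.38 and 5.58 CPM, rose by 1.42 ± 0.138 (adjusted p = 1.22e-06) and was above WT 3 to 5 as well, by 0.63 (adjusted p = 0.000293). Ir75a and Ir75b, receptors of acids, were near 0 in Y874C, at 0.0892 to 0.297 CPM and 0 to 0.0765 CPM, against 1.00 to 1.73 CPM in WT 1 and 2. The summed antennal markers were 435 to 527 CPM in Y874C, 772 and 712 CPM in WT 1 and 2 and 1084 to 1256 CPM in WT 3 to 5, with 0 rises and 2 falls among 6 and none at 0. Obp19d made up most of these sums, at 414, 510 and 493 CPM in Y874C and 739 and 683 CPM in WT 1 and 2. Each other marker held at most 10.6 CPM in those libraries. The part of antennal content in these falls was not tested.

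Enzymes that clear foreign compounds moved both ways. Of 77 cytochrome P450 genes 5 rose and 15 fell (median -0.10). Cyp6a8 measured 29.2, 20.8 and 19.97 CPM against 9.78 and 9.21 CPM (log2 fold 1.30 ± 0.229, adjusted p = 0.000857), while WT 3 to 5 held 18.5 to 21.1 CPM. Cyp6t3, of ecdysone synthesis, measured 6.43, 4.58 and 6.04 CPM against 10.7 and 11.7 CPM (-0.98 ± 0.156, adjusted p = 0.000355) and was lower than in WT 3 to 5 too, by 1.31 on the log2 scale. Cyp4ac2 (1.24) and Cyp6g2 (-1.18) passed against WT 1 and 2 and not against WT 3 to 5. The P450 rises numbered 3 and the falls 10 without WT 1, and 4 and 9 without WT 2.

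Of 28 UDP-glycosyltransferases 6 rose and 0 fell, with a median of 0.30. Ugt36F1 measured 21.7, 17.8 and 16.1 CPM against 9.41 and 8.85 CPM (log2 fold 1.02 ± 0.137, adjusted p = 5.64e-05) and was above WT 3 to 5, at 4.74 to 5.404 CPM. Ugt49C1 rose by 0.62 (adjusted p = 0.00177) but was lower than in WT 3 to 5, by 0.90 on the log2 scale. The rises numbered 3 without WT 1 and 2 without WT 2. Of 32 glutathione transferases 5 rose and 4 fell. GstE6 rose to 49.4, 53.3 and 50.9 CPM from 27.8 and 31.5 CPM (0.79 ± 0.147, adjusted p = 0.00131), and GstE11 fell by 0.81 on the log2 scale (adjusted p = 0.00589, 0.12 without WT 2). The glutathione transferases gave 3 rises and 1 fall without WT 1, 2 and 0 without WT 2, and 2 falls without Y874C 1.

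Heat shock proteins refold damaged proteins. Of 29 tested, with their co-chaperones, 2 rose and 4 fell. Hsp70Bc measured 24.1, 24.2 and 22.99 CPM in Y874C against 221 and 165 CPM in WT 1 and 2 (log2 fold -3.02 ± 0.185, adjusted p = 1.77e-09), and WT 3 to 5 held 145 to 157 CPM. Hsp70Ba measured 50.9, 23.5 and 23.1 CPM against 252 and 176 CPM (-2.72 ± 0.477, adjusted p = 0.000808), yet only 5.71 to 7.84 CPM in WT 3 to 5. These genes are nearly identical copies, so the split of reads between them is uncertain. Hsp27 fell by 2.73 on the log2 scale, from 4.92 CPM in WT 1 and 26.4 CPM in WT 2, and had an adjusted p of 0.297 without WT 2. Of 22 genes of the unfolded protein and integrated stress responses 3 rose and 0 fell. PPP1R15, which lifts the block on translation, rose to 142, 130 and 125 CPM from 92.8 and 101 CPM (0.45 ± 0.0643, adjusted p = 0.000111). Herp, of protein disposal from the endoplasmic reticulum, rose by 0.32 (adjusted p = 0.00143). Both also exceeded WT 3 to 5. Without WT 2 the heat shock falls numbered 2.

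Among 61 cuticle protein genes 7 rose and 2 fell (median 0.23). Cpr76Bd measured 48.1, 51.7 and 80.4 CPM against 25.1 and 19.1 CPM (log2 fold 1.44 ± 0.292, adjusted p = 0.00263, 0.069 without WT 2), and Cpr11B measured 12.6, 10.3 and 11.2 CPM against 24.5 and 23.1 CPM (-1.06 ± 0.134). Of 32 pigment genes 5 rose and 2 fell. yellow-b rose to 26.1, 25.9 and 25.6 CPM from 14.3 and 14.0 CPM (0.87 ± 0.12, adjusted p = 7.97e-05), above all other head libraries. w, the white transporter of eye pigment precursors, rose by 0.45 (adjusted p = 0.0005). The level of w was 140 to 152 CPM in Y874C and 105 to 115 CPM in the 5 WT libraries. The cuticle rises numbered 3 without WT 1 and 1 without WT 2, and the pigment rises 3 and 2.

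Of 23 genes of juvenile hormone and ecdysone 0 rose and 3 fell. Jhe, which breaks down juvenile hormone, measured 3.46, 4.43 and 3.90 CPM against 9.67 and 8.37 CPM (log2 fold -1.20 ± 0.164, adjusted p = 7.37e-05), and WT 3 to 5 held 6.81 to 8.53 CPM. The hemocyte list gave 2 rises and 0 falls among 22, NimC2, a phagocytosis receptor, rising by 1.41 (adjusted p = 0.00255). Of 31 enzymes that set or remove histone methylation 0 rose and 1 fell. That gene was trx, a trithorax methyltransferase for histone H3, which fell by 0.43 on the log2 scale (adjusted p = 0.0208), with 0.187 without WT 1, 0.1 without WT 2 and 0.104 without Y874C 2. Of 25 genes of insulin and TOR signalling 0 rose and 2 fell, Akt by 0.39 on the log2 scale (adjusted p = 0.00341, 0.0808 without WT 1).

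By position, called genes were spread over the genome at similar shares. On X 11.2% of 2071 genes tested were called, on 2L 10.8% of 2393, on 2R 13.3% of 2593, on 3L 11.6% of 2522 and on chromosome 4 11.2% of 107. On 3R 177 of 3150 genes rose and 171 fell. The called share was 10.1% of 129 genes within 0.5 Mb of Kdm5, 14.9% of 249 within 1 Mb and 12.6% of 446 within 2 Mb. Over 115 windows of 1 Mb with at least 50 genes tested, the called share ran from 1.92 to 24.0%, with a median of 11.6%. The window at the top was X from 12000001 to 13000000, with 7 rises and 11 falls among 75 genes, and it holds pira and Agpat1.

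R873W changes the residue next to Y874C, and its 3 libraries shared the roX2 and Orco levels of Y874C. A direct contrast of the variants needs no WT library. Of the genes tested 1731 were higher in Y874C (13.4%) and 1740 lower (13.5%), together 3471. Without Y874C 2 the count was 1644, and without Y874C 3 it was 1744. mthl8 was the largest rise, at 79.4 to 93.5 CPM in Y874C and 0.222, 0.134 and 0.0425 CPM in R873W (log2 fold 9.27 ± 0.31, adjusted p = 4.22e-12). TkR99D was higher in Y874C by 1.55, GABA-B-R1 by 1.12, IntS10 by 1.22 and Ugt37A3 by 2.48, and Jhe was lower by 1.45 on the log2 scale. IntS12 (-0.55, adjusted p = 0.0508), CG32225 (0.01) and CG4408 (0.06) did not pass.

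Other large rises against R873W reflected low levels in that variant, for Srg3 and tobi not in it alone. Mean Srg3 was 0.788 CPM in A224T, 3.57 CPM in L854F and 4.74 CPM in D234G, but 35.7 CPM in JmjC. sordd2 measured 74.6, 80.9 and 87.1 CPM in Y874C, 76.9 and 69.5 CPM in WT 1 and 2, and 5.15, 3.05 and 4.51 CPM in R873W (log2 fold 4.25 ± 0.121). Srg3 measured 16.0, 24.6 and 15.4 CPM in Y874C, 18.2 and 17.6 CPM in WT 1 and 2, and 0.844, 1.08 and 0.765 CPM in R873W (4.38 ± 0.727). tobi, a glycosidase gene that insulin-like and glucagon-like hormones regulate, measured 6.32, 12.8 and 10.9 CPM against 0.622, 0.672 and 0.255 CPM (4.27 ± 0.875). Mean tobi was 10.2 CPM in WT 1 and 2, but 2.72 ± 4.28 CPM (SD) in D234G and 39.8 ± 45.1 CPM in JmjC. The largest falls were of transcripts known from male accessory glands and other male reproductive tissue, Mst57Da, Anp, CG18284, msopa and Acp36DE, none of which exceeded 0.0765 CPM in Y874C. In WT 1 and 2 Mst57Da, Anp and msopa had no count, and CG18284 and Acp36DE averaged 0.0263 and 0.105 CPM. Means in WT 3 to 5 were at most 0.0403 CPM. D234G means ran from 22.8 CPM (CG18284) to 100 CPM (Acp36DE). Y874C was thus near WT for these genes, and R873W and D234G were high. Acp36DE measured 2.58, 35.5 and 179 CPM in R873W 1, 2 and 3, so its level was set by the library. Summed male reproductive markers were 428, 727 and 2560 CPM in R873W and 288 to 390 CPM in Y874C. Est-6 made up most of the sums in Y874C, at 253 to 352 CPM, and in R873W 1 and 2, at 373 and 508 CPM. The part of male reproductive tissue in these falls was not tested. The call of Anp was lost without R873W 3 (adjusted p = 0.112), without Y874C 2 (0.0759) and without Y874C 3 (0.0719).

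Ribosomal protein genes were among the groups with more called members than the all-gene shares of 13.4% higher and 13.5% lower in this contrast. Ribosomal proteins of the 40S subunit were higher in Y874C for 19 of 38 genes and lower for 0 (median 0.25), those of the 60S subunit for 24 and lower for 3 of 52 (median 0.24), and mitochondrial ribosomal proteins for 39 and lower for 2 of 72 (median 0.31). The all-gene median of this contrast was -0.01. Of 44 genes of ribosome biogenesis 11 were higher and 1 lower, and of 56 translation factors 13 were higher and 8 lower. Against WT 1 and 2, R873W itself gave 15 falls and 4 rises of the 40S list, 27 and 5 of the 60S list and 42 and 0 of the mitochondrial list, with 16.9% of all genes higher and 18.5% lower; that comparison shares its control with Y874C. Without R873W 1 the count of the 40S list was 9 and that of the mitochondrial list 22. The 40S count was 11 without Y874C 3, and the mitochondrial count 25 without Y874C 2 and 23 without Y874C 3.

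All 13 genes of the mitochondrial genome had log2 folds below 0 against R873W, 12 of them called, with a median of -0.99. Against WT 1 and 2, the control shared with Y874C, R873W itself gave 8 rises and 0 falls of this list (median 0.84). Y874C gave 0 rises and 3 falls there (median -0.01). The shares of counts from mitochondrial genes were 4.2 to 8.19% in Y874C, against 9.39, 11.2 and 9.08% in R873W, and did not overlap. Without Y874C 2 the called falls were 4, without Y874C 3 they were 7, and without R873W 2 they were 7. Of 32 synaptic vesicle genes 11 were lower and 0 higher (median -0.11), and the count was 3 without Y874C 2, 4 without Y874C 3, 5 without R873W 1 and 6 without R873W 3. R873W gave 8 rises and 1 fall of the synaptic list against WT 1 and 2 (median 0.09), where Y874C gave 0 and 0. Of 37 transmitter receptors 3 were higher and 11 lower, of 38 nuclear genes of complex I 17 higher and 2 lower, of 36 odorant-binding proteins 3 higher and 13 lower, and of 23 genes of juvenile hormone and ecdysone 0 higher and 11 lower. Of 19 Toll effectors 3 were higher and 2 lower (median -0.27).

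**Figure D5:**
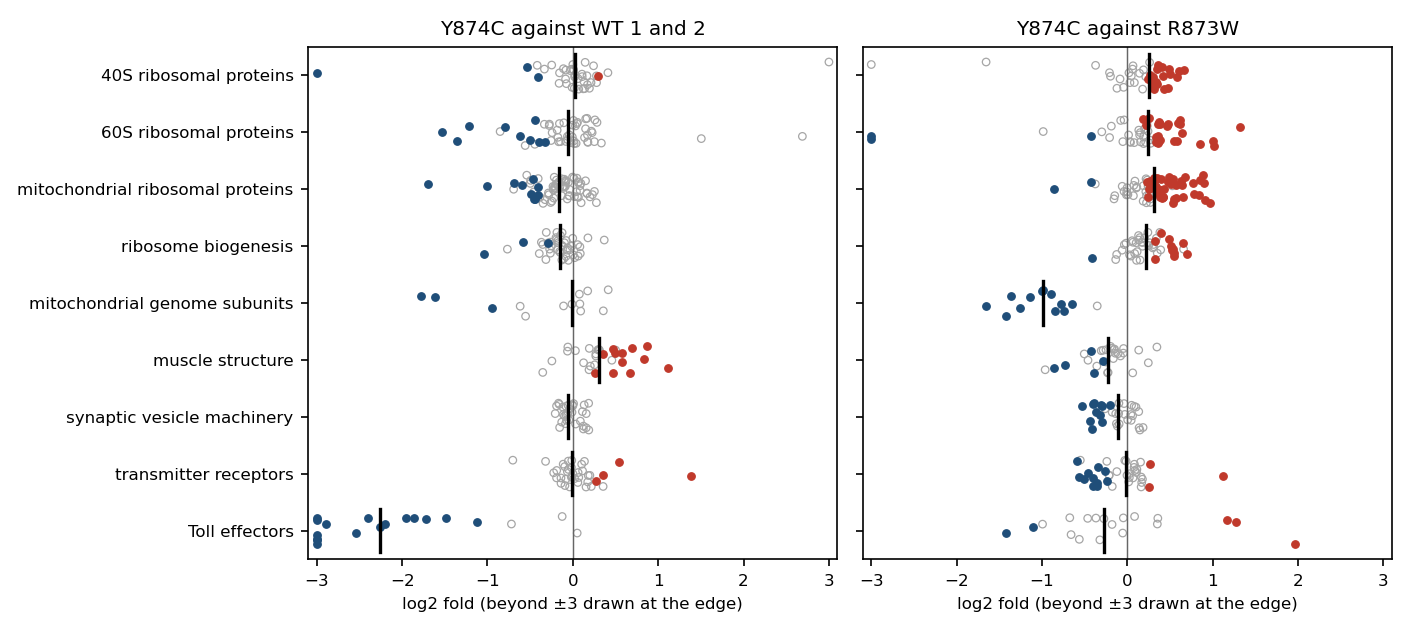
Log2 folds of genes in 9 lists for Y874C against WT 1 and 2 (left) and Y874C against R873W (right). Red circles were higher, blue circles lower, open circles did not pass, and black bars are list medians; genes beyond 3 are drawn at the edge (8 on the left, 3 on the right). The 3 ribosomal lists have medians of 0.24 to 0.31 on the right, where the genes of the mitochondrial genome have a median of -0.99.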

How the data were processed

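RNA-seq of heads was analysed from the counts that the authors deposited, whole numbers for 23882 features in 23 libraries. Per the labels' protocols, RNA came from a Trizol extraction and a stranded mRNA kit. Per the submitters' processing notes, the dm6 build was used, with STAR and featureCounts, fastp and DESeq2. No source used here gives versions, annotation release or strand option, so overlapping, antisense and paralogous genes are uncertain. The 17830 gene rows were used, and 5416 transposable element rows and 636 other rows were left out of the tests. Gene symbols were found for 17751 genes, and positions are those of RefSeq on Release 6 (dm6). The 12 Ribo-Seq samples were not used here.

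Counts were fitted with edgeR 4.0.16 in R 4.3.3 (limma 3.58.1) in 1 means model of 8 groups over all 23 libraries, WT 1 and 2 and WT 3 to 5 being separate groups, with TMM scaling and filterByExpr (12925 genes kept, 15 residual degrees of freedom). The quasi-likelihood test with Benjamini-Hochberg adjustment gave every adjusted p, called under 0.05. The fit draws its spread from all groups. CPM are TMM-scaled, ± is the standard error of a log2 fold or the SD of CPM, and intervals cover counting error only. Library depth was 3803077 to 32985353 counts. The script was tested on simulated data. Python 3.11.15, scipy 1.17.1 and matplotlib 3.10.9 gave the exact tests and figures.

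The members and the 48 gene lists were chosen with earlier results of these data known, and 28 list entries were not found. No list was tested as a set. The rule for named genes took Kdm5, the 12 largest changes each way by log2 fold (called, at least 5 CPM on average in the higher group, libraries of both groups apart), up to 3 called members of each list per direction by smallest p, other members of a list described as a whole, and the 5 largest each way against R873W. Genes outside the other 20 libraries were chosen after their values were seen. Alternatives were other scalings, filters, tools (DESeq2 1.42.0), sets of libraries, controls, a replicate block and leaving out each library.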

Additional observations from a re-analysis of the deposited data

How the results depend on the processing

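Against the 750 higher and 753 lower genes, DESeq2 called 963 and 841, and the 5 libraries alone 567 and 537. The 11 libraries of Y874C, R873W, D234G and WT 1 and 2 gave 518 and 449. A test for more than 1.2-fold gave 263 and 343. Leaving out each library gave 279 to 836 higher and 289 to 664 lower. Without the D234G libraries (3803077, 4960383 and 19564928 counts), 921 genes were higher and 828 lower. Deviations of same-numbered libraries correlated by 0.052 and -0.037, and a replicate block gave 488 and 528. The deviations of the 2 WT libraries mirror each other, so these values cannot decide whether replicates were paired. WT 3 to 5 as control gave 1935 and 2136, and all 5 WT 1121 and 1213. Against R873W, 3471 genes differed, with 1320 from the 6 libraries alone, 1484 from 11 and 1644 to 3919 when each library was left out. Other scalings moved log2 folds against WT 1 and 2 by a median of at most 0.00854. Against R873W they moved them more: TkR99D ran from 1.49 (upper quartile) to 1.63 (library size only), with 1.55 in the main fit. The genes that differed then numbered 3254 (upper quartile) and 4090 (library size only).

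With WT 3 to 5 as control the log2 fold turned direction for lncRNA:CR44701 (0.23), FBgn0267727 (0.46), frac (0.34), Cyp6a17 (0.44), Drsl4 (0.28), Drs (-1.26), Def (0.75), ND-MWFE (0.70), mt:ND4L (1.76), VhaM9.7-a (0.12), TpnC4 (-0.26), Yp1 (-1.53), Yp2 (-1.55), Yp3 (-1.34), Lsp1beta (0.091), UGP (-0.20), RpS3A (-0.56), RpS5b (0.26), mRpL42 (0.47), AstA (0.50), Dsk (0.014), sei (-0.036), Clk (-0.11), Obp56d (0.22), Cyp4ac2 (-0.25), Cyp6g2 (0.049), Ugt49C1 (-0.90), Hsp70Ba (2.28), Hsp27 (0.15) and Cpr11B (0.81). With all 5 WT it turned for Drs (-0.87), Yp1 (-0.94), Yp2 (-0.97), Yp3 (-0.76), RpS3A (-0.27), AstA (0.10) and Ugt49C1 (-0.46). Drs was -0.20 without WT 2 and -1.23 without Y874C 2, and RpS5b ran from -4.46 to 0.88 as libraries were left out, the latter without WT 2. The cause was not tested. Of 2376 values of named genes under the alternatives that kept the control, 2207 kept direction and side of the threshold, 164 lost the call and 2 gained it.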
